A study of Arabidopsis thaliana with 15 samples.

Results

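Columella cells of the Arabidopsis thaliana root tip were compared with cells sorted together from the epidermis and the lateral root cap. The comparison rested on 6 of the 15 arrays of the series, 3 for each population, chosen by their titles. The series measured sorted root cells of 5 populations, with 3 arrays each, on Affymetrix arrays. All plants were ecotype Columbia seedlings, grown for 5 days on full medium and then kept for 3 h on sulfur-deficient medium before the roots were made into protoplasts and sorted by fluorescence. The columella was sorted from the marker line Pet111, and the epidermis with the lateral root cap from pWER::GFP. The remaining populations were the cortex, the endodermis with the quiescent center, and the stele. All groups, the references included, had the sulfur treatment, and full-medium arrays were not analysed here. Because pWER::GFP marks epidermis and lateral root cap alike, the lateral cap was not measured alone, and a gene shared with the lateral cap cannot be told apart from a gene shared with the epidermis.

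The root cap covers the meristem at the tip. Its central part, the columella, holds tiers of cells with starch-filled amyloplasts that settle with gravity, and its outer cells are shed. The lateral root cap flanks the meristem and arises from stem cells that also give rise to the epidermis, whose cells later become hair or non-hair cells. The cap secretes cell wall material and is a site of auxin redistribution.

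Values are MAS5 signals, the intensity of a probe set as the deposited table gives it. Correlations between arrays are on the scale of log2(signal + 16). They are over the 14117 probe sets that passed a level filter set on the columella and epidermis arrays. The 3 columella arrays correlated at 0.966 to 0.983. Epidermis replicates 1 and 3 correlated at 0.965, but replicate 2 correlated at 0.816 and 0.812 with them and at 0.971 with stele replicate 2. Stele replicate 1 correlated at 0.966 with epidermis replicate 3. PHV and BBM, known from the vascular cylinder and from root stem cells, gave signals of 540.5 and 297 on epidermis replicate 2. On epidermis replicates 1 and 3, PHV was at 28.5 and 26.0 and BBM at 4.01 and 5.11. Epidermis replicate 2 also had 487 for GSO1, a receptor kinase of the endodermal barrier, against 31.3 and 33.2 on the other two. The summed signal of 4 cortex markers stayed between 33.0 and 44.7 on the columella arrays and between 40.7 and 82.9 on the epidermis arrays, against 3107 to 3838 on the cortex arrays. The ratio of the 3′ to the 5′ actin control probe sets was 11.2 to 12.8 in the columella, 9.40 and 9.47 on epidermis replicates 1 and 3, and 28.4 on replicate 2. For the GAPDH control the ratio was 1.98 to 2.28 in the columella and 1.04 to 1.21 in the epidermis arrays. The part of these differences in the results below was not tested. The counts over all probe sets and the class counts are therefore given with all 3 epidermis arrays and again without replicate 2. List counts and differences of single genes are given without replicate 2 only in part. Where no setting is named, they are from all 3 epidermis arrays.

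The first question was how many genes separate the populations. Each array holds RNA of a bulk of sorted cells, so fewer cells of a type and less RNA per cell cannot be told apart in any value below. Of 14117 probe sets above the level filter, 2015 were higher in the columella and 1815 were higher in the epidermis with lateral cap, or 14.3% and 12.9%. Calls needed a Benjamini-Hochberg adjusted p below 0.05 from limma together with a log2 difference of 1 or more, on the scale of log2(signal + 16). Of the genes named in the text, 26 had a signal under 16 on at least 1 of the 6 arrays. Their difference depends most on the pseudocount of 16, so that no fold is given for them. The differences with pseudocounts of 1 and 64 stand beside the main one where that one is printed. Folds given for other genes are ratios of signal + 16, which lie below the ratios of the signals where these are dim. Without epidermis replicate 2 the counts were 2762 (19.6%) and 2146 (15.2%), and the median log2 difference was 0.01 with all arrays and 0.07 without that array. Hence 27.1% of probe sets were called with all arrays and 34.8% without it. Of the calls with all arrays, 1913 higher and 1627 lower in the columella were also called without it, and no probe set was called in opposite directions. Values of the 3 columella arrays lay wholly above those of the 3 epidermis arrays for 27.4% of probe sets, and wholly below for 25.6%. A lack of overlap given below for single called genes is thus no separate support for their calls. Leaving out columella replicate 1 lowered the number higher in the epidermis to 1145. The plot of both sets of differences shows most calls near the diagonal and 1368 calls made only without replicate 2.

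**Figure D1:**
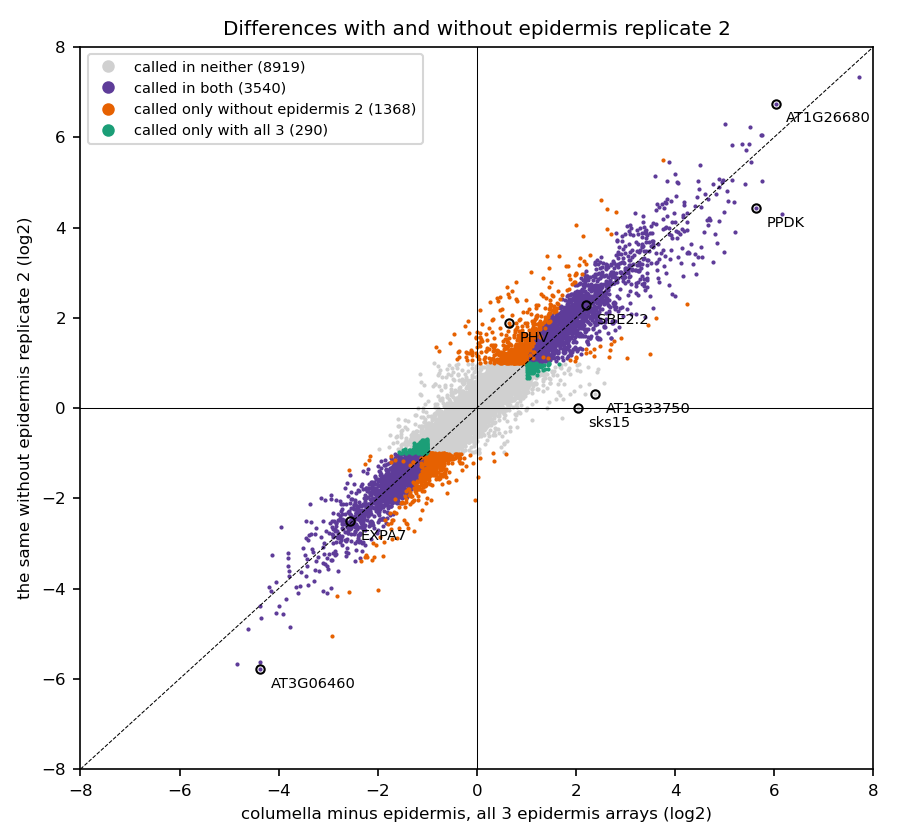
Log2 difference of each probe set (columella minus epidermis with lateral cap) with all 3 epidermis arrays (x axis) and without epidermis replicate 2 (y axis). Colours give the 3540 probe sets called in both, the 1368 called only without replicate 2, the 290 called only with all arrays and the rest, and the dashed line marks equal values.

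A starch gene, as a marker of the columella, and root hair genes, as markers of the epidermis, were then viewed on each array. They were chosen with earlier results of these data known, so they are no independent check of the labels. SBE2.2 (AT5G03650), a starch branching enzyme, had signals of 998, 1038 and 1035 on the columella arrays and 259.7, 235 and 149 on the epidermis arrays. The columella arrays were close together and lay above every epidermis array (log2 difference 2.21 ± 0.25 (SE), 4.62-fold higher in the columella, adjusted p = 0.0013). EXPA7 (AT1G12560), an expansin of growing root hairs, had signals of 20.9, 62.1 and 44.0 in the columella and 242, 342 and 369 in the epidermis, with no overlap (log2 difference -2.56 ± 0.33 (SE), 5.90-fold lower in the columella, adjusted p = 0.0018). Its relative EXPA18 (AT1G62980), also of root hairs, gave 43.9, 62.3 and 77.6 against 333, 390.2 and 469 (log2 difference -2.43 ± 0.26 (SE), 5.39-fold lower in the columella, adjusted p = 0.00099). SCN1, a regulator of where hairs emerge, did not pass (-0.55, adjusted p = 0.33). The summed signal of these 3 root hair genes was 259 to 533 on the columella arrays and 900 to 1554 on the epidermis arrays. On the other arrays it was 797 to 997 in the cortex, 820 to 1110 in the endodermis and 1003 to 1689 in the stele. The sum thus did not set the epidermis apart from these populations. Epidermis replicate 2 lay within the range of the other epidermis arrays for both expansins, and stele replicates 1 and 2 were also high, with 241 and 378 for EXPA7 against 49.1 on stele replicate 3.

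**Figure D2:**
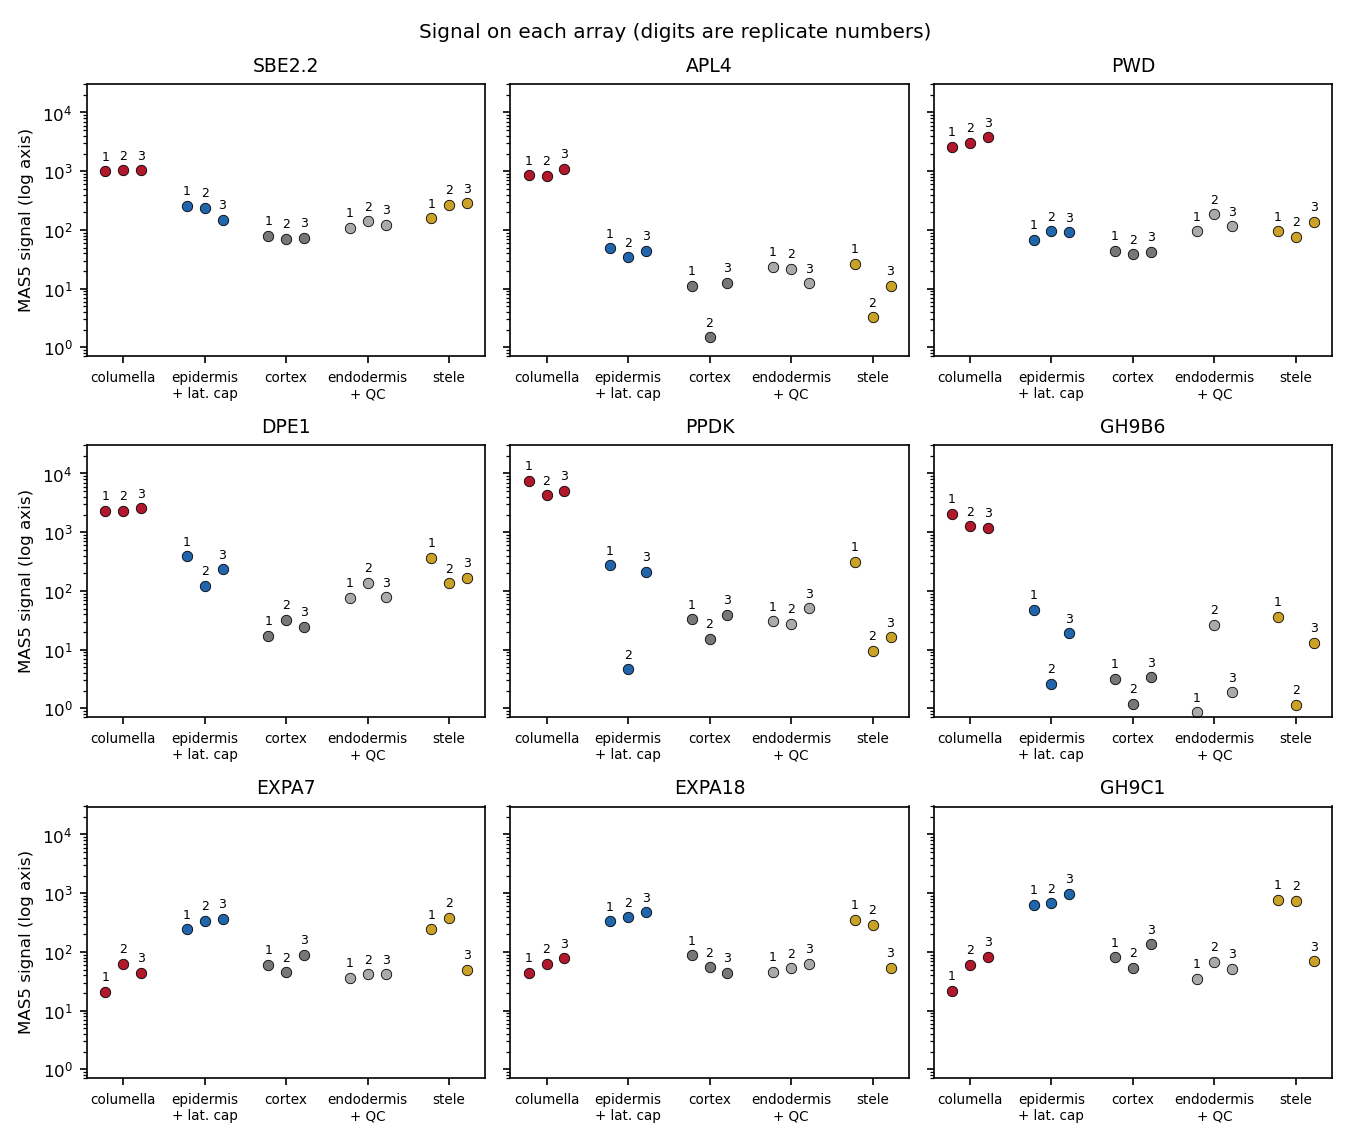
MAS5 signal (log axis) of 9 genes on all 15 arrays, with 1 point per array, grouped by population, and digits giving the replicate number. The 6 genes of the upper rows lie higher on the columella arrays than on every other array, and the 3 genes of the lowest row are higher on all epidermis arrays than on all columella arrays.

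The starch genes that were called were higher in the columella. Of 3 starch synthesis genes with a named probe set, 2 were higher in the columella, and of 3 starch breakdown genes, 2 passed the filter and both were higher. The counts were the same without epidermis replicate 2. The share of all tested probe sets was 14.3%, and 19.6% without that array, and nothing is read about these lists from counts this small. APL4 (AT2G21590), a large subunit of ADP-glucose pyrophosphorylase, which makes the sugar donor of starch, had signals of 845, 838 and 1108 in the columella and 48.2, 34.03 and 43.4 in the epidermis (log2 difference 4.03 ± 0.23 (SE), 16.3-fold higher in the columella, adjusted p = 0.00020). The columella stood far above, and without epidermis replicate 2 the difference was 3.93 ± 0.21 (SE), adjusted p = 1.2e-06. The sister subunit APL3 was not called, and its groups overlapped, with 47.8, 55.9 and 53.9 against 71.1, 56.1 and 32.6 (log2 difference 0.02, 95% interval -0.64 to 0.68). PWD (AT5G26570), a dikinase that phosphorylates starch glucans for their breakdown, had 2596, 3038 and 3759 in the columella and 67.1, 93.9 and 90.4 in the epidermis (log2 difference 4.97 ± 0.24 (SE), 31.4-fold higher in the columella, adjusted p = 0.00018). DPE1 (AT5G64860), the plastid enzyme that rearranges short glucans during breakdown, had 2312, 2299 and 2555 against 387, 121 and 232 (log2 difference 3.33 ± 0.38 (SE), 10.04-fold higher in the columella, adjusted p = 0.0013). The columella arrays lay close together for both genes, and epidermis replicate 2 was the lowest of its group for DPE1. PPDK (AT4G15530), which interconverts pyruvate and phosphoenolpyruvate, had 7558, 4267 and 5102 in the columella and 273, 4.62 and 210.0 in the epidermis. Its difference was 5.64 ± 0.92 (SE, adjusted p = 0.0042) with all arrays and 4.43 ± 0.25 (SE), adjusted p = 1.5e-06 without replicate 2. With all arrays it was 6.32 and 4.90 with pseudocounts of 1 and 64.

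Both genes of the root cap identity list that had a named probe set were higher in the columella, beside 14.3% of all tested probe sets. Nothing is read about root cap identity from a list of 2 genes. CLE40 (AT5G12990), a peptide that restrains columella stem cells, had 94.2, 101 and 84.0 against 41.0, 26.2 and 27.7 (log2 difference 1.204 ± 0.24 (SE), 2.30-fold higher in the columella, adjusted p = 0.0085). Its receptor kinase CR4, the Arabidopsis ACR4 (AT3G59420), had 62.6, 105 and 131 against 37.0, 24.7 and 4.84 (log2 difference 1.65 ± 0.41 (SE), adjusted p = 0.019, 2.43 and 0.92 with pseudocounts of 1 and 64). The groups did not overlap for either gene. The CR4 call was lost without columella replicate 2 (log2 1.59, adjusted p = 0.071) and without columella replicate 3 (log2 1.46, adjusted p = 0.077), and both calls were lost with a pseudocount of 64.

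Among called genes with a name, AT1G26680 and AT3G10320, which the annotation used here gives only by identifier, led toward the columella on the log2(signal + 16) scale. AT1G26680 had 1504, 2372 and 2523 in the columella and 2.46, 69.6 and 4.63 in the epidermis (log2 difference 6.04 ± 0.58 (SE), adjusted p = 0.00075, 7.55 and 4.66 with pseudocounts of 1 and 64). AT3G10320 had 1821, 1239 and 1402 against 2.70, 27.5 and 10.6 (log2 difference 5.74 ± 0.34 (SE), adjusted p = 0.00024, 7.102 and 4.32 with pseudocounts of 1 and 64). Their epidermis signals were under 16 on replicates 1 and 3. AT1G48070, AT4G18450 and AT5G48130 were also called, with log2 differences of 5.54, 4.95 and 4.98. With pseudocounts of 1 and 64, AT1G48070 was at 6.87 and 4.10 and AT5G48130 at 5.82 and 3.98. AT1G50060 had 21365, 12302 and 10542 against 779, 46.1 and 1099, where epidermis replicate 2 was far below the other two. Its difference was 5.21 ± 1.00 (SE, adjusted p = 0.0074) and 3.901 ± 0.29 (SE), adjusted p = 5.7e-06 without replicate 2. JRG21 (AT3G55970), a gene regulated by jasmonate, had 2602, 3088 and 2362 against 101, 16.8 and 182 (log2 difference 4.88 ± 0.59 (SE), 29.4-fold higher in the columella, adjusted p = 0.0015). AT4G23590 had 6225, 5457 and 5915 against 504, 6.15 and 533, with a difference of 4.99 ± 1.13 (SE, adjusted p = 0.014), 5.56 and 4.36 with pseudocounts of 1 and 64. Without columella replicate 1 that call was lost (log2 4.94, adjusted p = 0.058), while without epidermis replicate 2 it was 3.46 ± 0.17 (SE), adjusted p = 8.9e-07.

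The auxin genes called with all arrays were higher in the columella. Of 16 genes of the auxin list with a named probe set, 10 passed the filter, 4 were higher in the columella and 0 were higher in the epidermis, and 5 and 1 without epidermis replicate 2. Over all tested probe sets the shares were 14.3% and 12.9%, and 19.6% and 15.2% without that array. GH3.17 (AT1G28130), which joins auxin to glutamate, had 7009, 5385 and 5745 against 836, 272 and 793 (log2 difference 3.37 ± 0.42 (SE), 10.3-fold higher in the columella, adjusted p = 0.0017). WES1 (AT4G27260), the auxin-conjugating enzyme GH3.5, had 3326, 2471 and 2067 against 241, 537 and 379 (log2 difference 2.76 ± 0.33 (SE), 6.76-fold higher in the columella, adjusted p = 0.0015). For both genes the columella arrays were several times above every epidermis array. IAA33 (AT5G57420), of the Aux/IAA family of auxin response repressors, had 533, 595 and 715 against 37.8, 24.5 and 46.1 (log2 difference 3.61 ± 0.25 (SE), 12.2-fold higher in the columella, adjusted p = 0.00030). IAA20 (AT2G46990), of the same family, had 161, 146 and 168 against 28.8, 77.6 and 15.52 (log2 difference 1.77 ± 0.39 (SE), adjusted p = 0.013, 2.23 and 1.13 with pseudocounts of 1 and 64). It lost its call without columella replicate 1 (log2 1.76, adjusted p = 0.054) or without columella replicate 3 (log2 1.73, adjusted p = 0.051). GH3.3, another conjugating enzyme, had 17.8, 36.7 and 42.4 against 101, 956 and 65.5 and was not called (-2.16 ± 0.85, SE, adjusted p = 0.086), but without epidermis replicate 2 it was higher in the epidermis (-1.05 ± 0.31 (SE), adjusted p = 0.017).

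Of 8 tested GH9 endoglucanase genes, which cut glucan chains of the wall, 2 were higher in the columella and 2 in the epidermis, beside 14.3% and 12.9% of all tested probe sets. Nothing is read about the family from counts this small. GH9B6 (AT1G23210) had 2078, 1252 and 1174 against 47.4, 2.58 and 18.8 (log2 difference 5.41 ± 0.46 (SE), adjusted p = 0.00047, 6.59 and 4.16 with pseudocounts of 1 and 64). GH9C1 (AT1G48930) went the other way, with 21.5, 59.6 and 82.0 against 637, 674 and 979 (log2 difference -3.55 ± 0.38 (SE), 11.7-fold lower in the columella, adjusted p = 0.0011), and so did GH9B8 (AT2G32990), at -2.72 (adjusted p = 0.0022, -3.47 and -1.79 with pseudocounts of 1 and 64). The groups did not overlap for any of these 3 genes. GH9C2, the other gene called higher in the columella, was at 1.11 (adjusted p = 0.012) and fell below the fold threshold without epidermis replicate 2 (0.91). It was also not called without columella replicate 2 (log2 1.07, adjusted p = 0.060) or columella replicate 3 (log2 1.06, adjusted p = 0.059). Of 11 tested expansins, which loosen walls without cutting them, EXPA4 was the 1 called higher in the columella and 3 were higher in the epidermis, again beside 14.3% and 12.9% of all probe sets. EXPA4 (AT2G39700) had 662, 932 and 1015 against 125, 67.9 and 124 (log2 difference 2.88 ± 0.29 (SE), 7.37-fold higher in the columella, adjusted p = 0.00088). The expansin-like EXLA2 (AT4G38400) had 3.3, 32.4 and 19.3 against 317, 179 and 431 (log2 difference -3.26 ± 0.43 (SE), adjusted p = 0.0020, -4.35 and -2.14 with pseudocounts of 1 and 64), beside EXPA7 and EXPA18 above. The expansin counts were 3 and 3 without epidermis replicate 2, where the background was 19.6% and 15.2%. They were 2 and 3 without columella replicate 1, where 1391 and 1145 of the 14117 tested probe sets were called.

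Of 13 tested genes of wall polymer synthesis, 3 were higher in the columella and 2 in the epidermis, beside 14.3% and 12.9% of all probe sets. IRX15 (AT3G50220) and IRX15-L (AT5G67210), needed for xylan deposition, were at 2.56 (adjusted p = 0.0018) and 1.98 (adjusted p = 0.018), and GUT2 (AT1G27440), a xylan synthesis gene, at 2.02 (adjusted p = 0.0029). With pseudocounts of 1 and 64, IRX15 was at 4.68 and 1.29 and IRX15-L at 2.51 and 1.27. These were the 3 on the columella side. CSLC12 (AT4G07960), of the family that makes the xyloglucan backbone, had 10.6, 23.6 and 17.0 against 98.3, 60.9 and 98.9 (log2 difference -1.62 ± 0.29 (SE), adjusted p = 0.0056, -2.30 and -0.88 with pseudocounts of 1 and 64), and its relative CSLC04 was at -1.43 (adjusted p = 0.0089). IRX15-L lost its call in 4 of the 6 sets that left out 1 array, without columella replicate 1 or 2 or epidermis replicate 1 or 3, with adjusted p of 0.058 to 0.076, and CSLC12 did with a pseudocount of 64. Among xyloglucan endotransglucosylases, EXGT-A3 (AT2G01850) was higher in the columella (log2 difference 2.85 ± 0.47 (SE), 7.22-fold higher in the columella, adjusted p = 0.0044) and XTH18 (AT4G30280) higher in the epidermis (log2 difference -2.31 ± 0.34 (SE), 4.94-fold lower in the columella, adjusted p = 0.0029).

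Most genes of the autophagy list were higher in the columella, and apart from ATG3 and AT5G66930 the list held only ATG8 family genes. Other genes of autophagy were not in the list, so nothing is read about the pathway as a whole. Of 11 genes, all of which passed the filter, 9 were higher in the columella and 0 in the epidermis, against 14.3% and 12.9% of all probe sets, and the median log2 difference was 1.68, beside 0.01 over all tested probe sets. The same counts were found without epidermis replicate 2, with a median of 2.22 beside 0.07 over all, and the count was 6 to 9 over the sets that left out 1 array. Over all 14117 tested probe sets 1391 to 2762 were higher in the columella in those sets, beside 2015 with all arrays. The called genes of the list were ATG3, which loads ATG8 onto membrane lipid, and members of the ATG8 family, the ubiquitin-like proteins that mark the autophagosome. ATG8G (AT3G60640) had 302, 348 and 326 in the columella and 47.7, 63.3 and 54.5 in the epidermis (log2 difference 2.27 ± 0.21 (SE), 4.81-fold higher in the columella, adjusted p = 0.00063). ATG8F (AT4G16520) had 2290.2, 1529 and 1463 against 231, 681 and 326 (log2 difference 2.16 ± 0.40 (SE), 4.48-fold higher in the columella, adjusted p = 0.0065). ATG8B (AT4G04620) had 198, 104 and 133 against 0.604, 35.3 and 12.1 (log2 difference 2.44 ± 0.44 (SE), adjusted p = 0.0059, 3.95 and 1.39 with pseudocounts of 1 and 64). The groups did not overlap for any of these, and epidermis replicate 2 was the highest of its group. ATG3 (AT5G61500) had 1404, 1069 and 1175 against 407, 499.6 and 533 (log2 difference 1.31 ± 0.22 (SE), 2.48-fold higher in the columella, adjusted p = 0.0046). The remaining called genes were APG8A at 1.99, ATG8E at 2.07, ATG8C at 1.68, ATG8D at 1.49 and APG8H at 1.22. The genes not called were ATG8H at 0.36 (adjusted p = 0.50) and AT5G66930 at 0.24 (adjusted p = 0.43). In the cortex APG8H had 1345, 1201 and 1289 and ATG8E 512, 687 and 624, so that their signals there reached or passed those in the columella. By the fit over 12 arrays described below, ATG8B, ATG8D and ATG8G were higher in the columella than in cortex and endodermis as well. The count of 6 was that without columella replicate 1, epidermis replicate 1 or epidermis replicate 3, and ATG8E was not called in any of these, with adjusted p of 0.061 to 0.072. ATG8C was called in 1 set of this kind, that without epidermis replicate 2, and had adjusted p of 0.068 to 0.10 in the others. ATG8D was not called without columella replicate 1 or 2 or epidermis replicate 1 or 3, with adjusted p of 0.052 to 0.080.

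Of the other lists of membrane traffic, most genes were not called, and those called were higher in the columella. These were 3 of 14 tested genes of the exocyst and secretory fusion list, 2 of 13 tested genes of ESCRT sorting and 2 of 9 tested genes of the PRA1 family, with 0 higher in the epidermis in each. Over all tested probe sets 14.3% were higher in the columella and 12.9% in the epidermis, and nothing is read about these lists from counts this small. The ESCRT count was 4 without epidermis replicate 2, where the background was 19.6%. RAB6A (AT2G44610), a small GTPase of the Golgi, was at 1.27 (adjusted p = 0.0051), and the ESCRT-III subunits VPS60.2 (AT5G04850) and SNF7.1 (AT4G29160) were at 1.87 (adjusted p = 0.0026) and 1.61 (adjusted p = 0.0034). NET4B (AT2G30500), an actin-binding protein of the vacuole membrane and the 1 called of 7 tested of its family (4 without epidermis replicate 2), had 3578, 2997 and 3373 against 809, 359.6 and 686 (log2 difference 2.47 ± 0.32 (SE), 5.53-fold higher in the columella, adjusted p = 0.0018). Among serine carboxypeptidase-like genes, 3 of 17 tested were higher in the columella and 2 in the epidermis, and 5 and 6 without epidermis replicate 2, beside the same background (14.3% and 12.9%, or 19.6% and 15.2% without that array). The gene scpl20 (AT4G12910) had 3718, 2589 and 2627 against 365, 79.8 and 547 (log2 difference 3.43 ± 0.61 (SE), 10.8-fold higher in the columella, adjusted p = 0.0054). The gene scpl46 (AT2G33530) was at 3.26 (adjusted p = 0.0017, 3.93 and 2.34 with pseudocounts of 1 and 64), and scpl42 (AT5G42240) on the epidermis side at -2.50 (adjusted p = 0.0014, -3.47 and -1.48 with pseudocounts of 1 and 64).

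**Figure D3:**
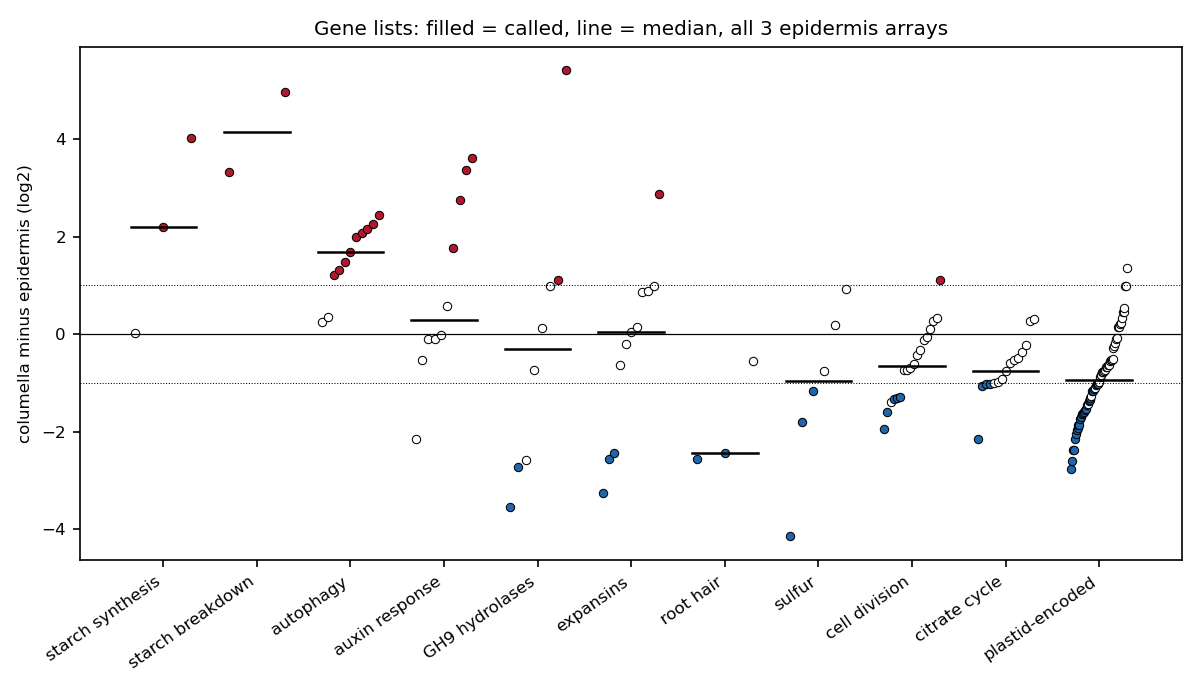
Log2 difference (columella minus epidermis with lateral cap, 6 arrays) of the tested genes of 11 lists, with 1 point per gene. Red points were called higher in the columella, blue points higher in the epidermis, white points were not called, bars give the list median, and dotted lines mark a difference of 1 in size. Of the 11 autophagy genes 9 are red, and of the 62 plastid-encoded genes 27 are blue.

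Of 4 tested genes of the protoplasting and wound list, 3 were higher in the columella, beside 14.3% of all probe sets, and this was so with and without epidermis replicate 2. STZ (AT1G27730), the zinc finger ZAT10 induced by many stresses, had 6066, 3884 and 3399 in the columella and 520.5, 939 and 520.1 in the epidermis (log2 difference 2.73 ± 0.33 (SE), 6.66-fold higher in the columella, adjusted p = 0.0015). The calmodulin-like CML37 (AT5G42380) was at 1.79 (adjusted p = 0.013) and CML38 (AT1G76650) at 1.56 (adjusted p = 0.012). CML38 lost its call without columella replicate 1 (log2 1.46, adjusted p = 0.058) and without columella replicate 2 (log2 1.49, adjusted p = 0.053). All cells were made into protoplasts, and the part of this step in the other differences was not tested.

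On the epidermis side, the leading differences on the log2(signal + 16) scale included those of AT3G49190, AT3G06460 and AT5G59240, given only by identifier, and that of BGLU28 described below. AT3G49190 had 104, 67.6 and 79.8 in the columella and 4074, 345 and 5813 in the epidermis, where replicate 2 was far below the other two. Its difference was -4.38 ± 0.94 (SE, adjusted p = 0.011), and -5.63 ± 0.24 (SE), adjusted p = 4.5e-07 without replicate 2. AT3G06460 had 55.1, 46.9 and 57.2 against 3109.5, 185 and 4643 and the same size of difference (-4.38, adjusted p = 0.017), which became -5.79 ± 0.23 (SE), adjusted p = 3.3e-07 without replicate 2. Its call was lost when any other array was left out, with adjusted p of 0.051 to 0.065. AT5G59240 had 20.9, 16.01 and 40.5 against 1352, 553 and 736 (log2 difference -4.37 ± 0.38 (SE), 20.6-fold lower in the columella, adjusted p = 0.00050). AT3G12860, also called, had 57.3, 64.04 and 70.9 against 1348, 1684 and 974 (log2 difference -4.05 ± 0.26 (SE), 16.5-fold lower in the columella, adjusted p = 0.00027). For these genes replicate 2, like the other epidermis arrays, was far above every columella array. AT3G49960 and AT1G30870 were at -3.81 (adjusted p = 0.0022, -6.19 and -2.26 with pseudocounts of 1 and 64) and -3.79 (adjusted p = 0.00063).

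With all arrays, the sulfur genes that were called were higher in the epidermis, and without epidermis replicate 2 they were called in both directions. Of 6 tested genes of the sulfur list, 3 were higher in the epidermis and 0 in the columella, and 2 and 1 without epidermis replicate 2, beside 12.9% and 14.3% of all probe sets and 15.2% and 19.6% without that array. SIR (AT5G04590), the plastid sulfite reductase, had 399, 453 and 436 in the columella and 2066, 1322 and 1323 in the epidermis (log2 difference -1.80 ± 0.25 (SE), 3.49-fold lower in the columella, adjusted p = 0.0022). BGLU28 (AT2G44460), a beta-glucosidase known to be induced when sulfur is short, had 13.3, 24.7 and 32.0 against 413, 2316 and 299 (log2 difference -4.14 ± 0.70 (SE), adjusted p = 0.0046, -4.85 and -3.10 with pseudocounts of 1 and 64). For BGLU28, replicate 2 was several times above the other epidermis arrays, and without it the difference was -3.25 ± 0.28 (SE), adjusted p = 1.2e-05. CBL (AT3G57050), the cystathionine lyase of methionine synthesis, was at -1.17 (adjusted p = 0.014). CBL fell to -0.98, under the fold threshold, without replicate 2, and was not called without columella replicate 1 (log2 -1.03, adjusted p = 0.061) or columella replicate 2 (log2 -1.17, adjusted p = 0.056). These values compare populations under the same medium and hold no measure of the response to sulfur.

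UDP-glycosyltransferases, which attach sugars to hormones and secondary metabolites, were called in both directions. Of 33 tested genes, 6 were higher in the columella and 11 in the epidermis, the same counts as without epidermis replicate 2. The columella count is near the background of 14.3% (19.6% without that array), and the epidermis count is above that of 12.9% (15.2%). UGT76C2 (AT5G05860), which inactivates cytokinin, had 518, 573 and 666 against 38.2, 114 and 14.3 (log2 difference 3.33 ± 0.49 (SE), adjusted p = 0.0029, 3.83 and 2.52 with pseudocounts of 1 and 64), and UGT76C1, which does the same, was at 1.51 (adjusted p = 0.013, 2.19 and 0.81 with pseudocounts of 1 and 64), a call lost without columella replicate 3 (log2 1.41, adjusted p = 0.056). UGT73D1 (AT3G53150) had 14.72, 13.9 and 13.3 against 134, 625 and 221 (log2 difference -3.24 ± 0.49 (SE), adjusted p = 0.0032, -4.15 and -2.12 with pseudocounts of 1 and 64). UGT73C7 (AT3G53160) was at -2.91 (adjusted p = 0.00099) and UGT78D2 (AT5G17050), a flavonoid glucosyltransferase, at -2.41 (adjusted p = 0.0021). The counts were 3 to 7 and 5 to 11 when 1 array was left out, and fell to 3 and 5 without columella replicate 1 and without columella replicate 3. Over all 14117 tested probe sets the calls fell too, from 2015 and 1815 to 1391 and 1145, and to 1467 and 1245. Without columella replicate 2 the family counts were 3 and 8, beside 1439 and 1284 over all. Without epidermis replicate 3 they were 7 and 6, beside 1830 and 1774 over all. Of 10 tested glutathione transferases 3 were higher in the columella, led by GSTU20 (AT1G78370) at 3.56 (adjusted p = 0.0027, 4.77 and 2.37 with pseudocounts of 1 and 64) and GSTL3 (AT5G02790) at 2.62 (adjusted p = 0.0041, 3.09 and 1.88 with pseudocounts of 1 and 64), and 2 were higher in the epidermis, where GSTU27 (AT3G43800) was at -2.14 (adjusted p = 0.0013). These shares lie beside the same background. The latter count was 1 when any array but epidermis replicate 2 was left out. In those sets 1145 to 1774 of all tested probe sets were higher in the epidermis.

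Of 15 tested enzymes of citrate, isocitrate, succinate and malate metabolism, 4 were higher in the epidermis and 0 in the columella, with a median difference of -0.76. Over all tested probe sets the shares were 12.9% and 14.3% and the median 0.01. The count was 8 without epidermis replicate 2, beside 15.2% of all probe sets. It was 2 without columella replicate 1, without epidermis replicate 1 and without epidermis replicate 3, and 2 under quantile scaling. Over all tested probe sets 1145, 1443, 1774 and 1857 were higher in the epidermis there, in that order. That number was 1815 with all arrays in the deposited scaling. SDH1-2 (AT2G18450), a flavoprotein subunit of succinate dehydrogenase, had 23.2, 48.0 and 64.7 in the columella and 274, 241 and 222 in the epidermis (log2 difference -2.15 ± 0.30 (SE), 4.44-fold lower in the columella, adjusted p = 0.0025). The groups did not overlap. ACLB-1 (AT3G06650), a subunit of ATP-citrate lyase, was at -1.07 (adjusted p = 0.0060), and SDH1-1 and IDH-VI, a catalytic subunit of isocitrate dehydrogenase, were at -1.02 (adjusted p = 0.0091) and -1.01 (adjusted p = 0.031), just past the fold threshold. SDH1-1 and IDH-VI were both not called without columella replicate 1, epidermis replicate 1 or epidermis replicate 3, and IDH-VI also not without columella replicate 2 or 3.

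Of 69 plastid-encoded genes with a named probe set, 62 passed the filter, 27 were higher in the epidermis and 0 in the columella, and the median was -0.93, against 12.9%, 14.3% and a median of 0.01 over all tested probe sets. Without epidermis replicate 2 the counts were 23 and 3, with a median of -0.59, against 15.2%, 19.6% and 0.07, and under quantile scaling they were 24 and 0. The gene accD, for the plastid subunit of acetyl-CoA carboxylase, had 216, 217 and 312 in the columella and 1882, 1663 and 1757 in the epidermis (log2 difference -2.77 ± 0.23 (SE), 6.83-fold lower in the columella, adjusted p = 0.00047). The maturase gene matK had 701, 444 and 732 against 3779.8, 3320.5 and 4385 (log2 difference -2.61 ± 0.26 (SE), 6.09-fold lower in the columella, adjusted p = 0.00083), and rpoC1, for a subunit of the plastid RNA polymerase, had 238, 186 and 191 against 1087, 1316 and 996 (log2 difference -2.38 ± 0.22 (SE), 5.19-fold lower in the columella, adjusted p = 0.00064). The columella arrays lay below all epidermis arrays for these genes. The gene rbcL, for the large subunit of the carbon-fixing enzyme, was not called (-0.07, 95% interval -0.64 to 0.49). Of 12 tested mitochondrially encoded genes, 2 were higher in each population, near the background, and 1 in each without any 1 columella array or epidermis replicate 1. In those sets 1391 to 1713 of all tested probe sets were higher in the columella and 1145 to 1443 in the epidermis. The mitochondrial counts in columella and epidermis were 3 and 1 without epidermis replicate 2, and 1 and 3 without epidermis replicate 3. Of these, cox2, for a subunit of cytochrome oxidase, was at 2.202 (adjusted p = 0.0031). RNA was amplified in 2 cycles and the control probe sets differed as given above. The part of either in the organelle values was not tested.

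Of 18 tested genes of cell division and histones, 5 were higher in the epidermis and 1 in the columella, beside 12.9% and 14.3% of all probe sets. BUBR1 (AT2G33560), of the spindle checkpoint, had 4.25, 9.98 and 1.50 in the columella and 85.3, 68.9 and 44.1 in the epidermis (log2 difference -1.94 ± 0.31 (SE), adjusted p = 0.0040, -3.63 and -0.90 with pseudocounts of 1 and 64). Haspin (AT1G09450), a mitotic histone kinase, was at -1.60 (adjusted p = 0.013), and PRL (AT4G02060), a subunit of the replication helicase, at -1.33 (adjusted p = 0.0097). The groups did not overlap for any of these 3 genes. ATMAP65-6, a microtubule-bundling protein, was the 1 higher in the columella, at 1.11 (adjusted p = 0.020), and was called without epidermis replicate 2 but in no other set that left out 1 array, with adjusted p of 0.054 to 0.082 there. Haspin lost its call without columella replicate 1 (log2 -1.54, adjusted p = 0.054). The count higher in the epidermis was 2 without columella replicate 1, 3 without columella replicate 2 or 3, and 1 with a pseudocount of 64. Over all tested probe sets 1145, 1284, 1245 and 1236 were higher in the epidermis there, in that order. That number was 1815 with all arrays and a pseudocount of 16.

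A difference between the populations does not say whether a gene is particular to the columella, since both hold root cap cells. A second fit therefore set each of them against cortex and endodermis with quiescent center, whose labels name no root cap, in 15770 probe sets. A probe set was put in the columella-only class when the columella was called above the other 3 populations of this fit, which held no stele arrays. It was shared when the columella and the epidermis were each called above cortex and endodermis and differed from each other by under 1 on the log2 scale, and epidermis-only when the epidermis was called above the other 3. With all 12 arrays, 1145 were columella-only (7.26%), 170 shared (1.08%) and 784 epidermis-only (4.97%). Without epidermis replicate 2 there were 1165 (7.39%), 280 (1.78%) and 948 (6.01%), and 1055, 138 and 653 held the same class in both. Adding the 3 stele arrays to the reference left 985 columella-only, 0 shared and 0 epidermis-only by limma, and 1 shared and 8 epidermis-only at an unadjusted p under 0.05. With stele as a reference but without epidermis replicate 2 and stele replicate 1, there were 924, 125 and 233. The columella-only count moved by less than 1.5 times under each of these choices, and the counts of the other classes did not stay within that range. The median level of the 280 shared probe sets was 8.59 to 8.65 on the columella arrays, 8.69 and 8.45 on epidermis replicates 1 and 3, and 7.50 on epidermis replicate 2. On stele replicate 1 it was 8.43, and on stele replicates 2 and 3 it was 7.44 and 7.61, all as log2(signal + 16).

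The 10 genes of highest excess over cortex and endodermis in the shared class were chosen without epidermis replicate 2. That they were high in both root cap populations on the remaining arrays, and alike in both, follows from this choice. For sks15 (AT4G37160), which belongs to the SKU5-similar family of multicopper oxidase-like proteins, the signals were 7799, 5801 and 6455 in the columella and 6268, 79.0 and 7062 in the epidermis. In the cortex they were 122.9, 119 and 126, in the endodermis 1011, 929 and 473 and in the stele 6217, 163 and 144. The columella and epidermis replicates 1 and 3 lay at the same level, and epidermis replicate 2 lay below even the cortex. The difference between the populations was 2.04 ± 1.50 (SE, adjusted p = 0.32) with all arrays and -0.004 ± 0.18 (SE), adjusted p = 0.99 without replicate 2. Its relative sks16 (AT2G23630) had 3477, 2591 and 2933 against 3203, 46.6 and 3744, and a difference of -0.22 ± 0.19 (SE) without replicate 2. AT1G33750 had 3088, 3657 and 3585 against 3574, 20.4 and 2144, while the cortex stood at 23.4, 5.72 and 22.7. AT5G60520 had 8683, 8472 and 9284 against 7010.4, 133 and 7092, and its neighbour by identifier AT5G60530 had 18483, 12872 and 11248 against 7465, 257 and 8486. In each of these genes replicate 2 was far below replicates 1 and 3. AT1G52070, AT1G67850, AT1G74010, AT3G05390 and AT1G50720 made up the 10, with differences of 0.36, 0.91, 0.54, 0.28 and 0.75 without replicate 2. With all arrays, AT1G67850 and AT1G50720 were instead columella-only, and the other 8 were in no class. All 10 also stood on stele replicate 1 above stele replicates 2 and 3, as with 9984, 853 and 922 for AT1G52070.

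**Figure D4:**
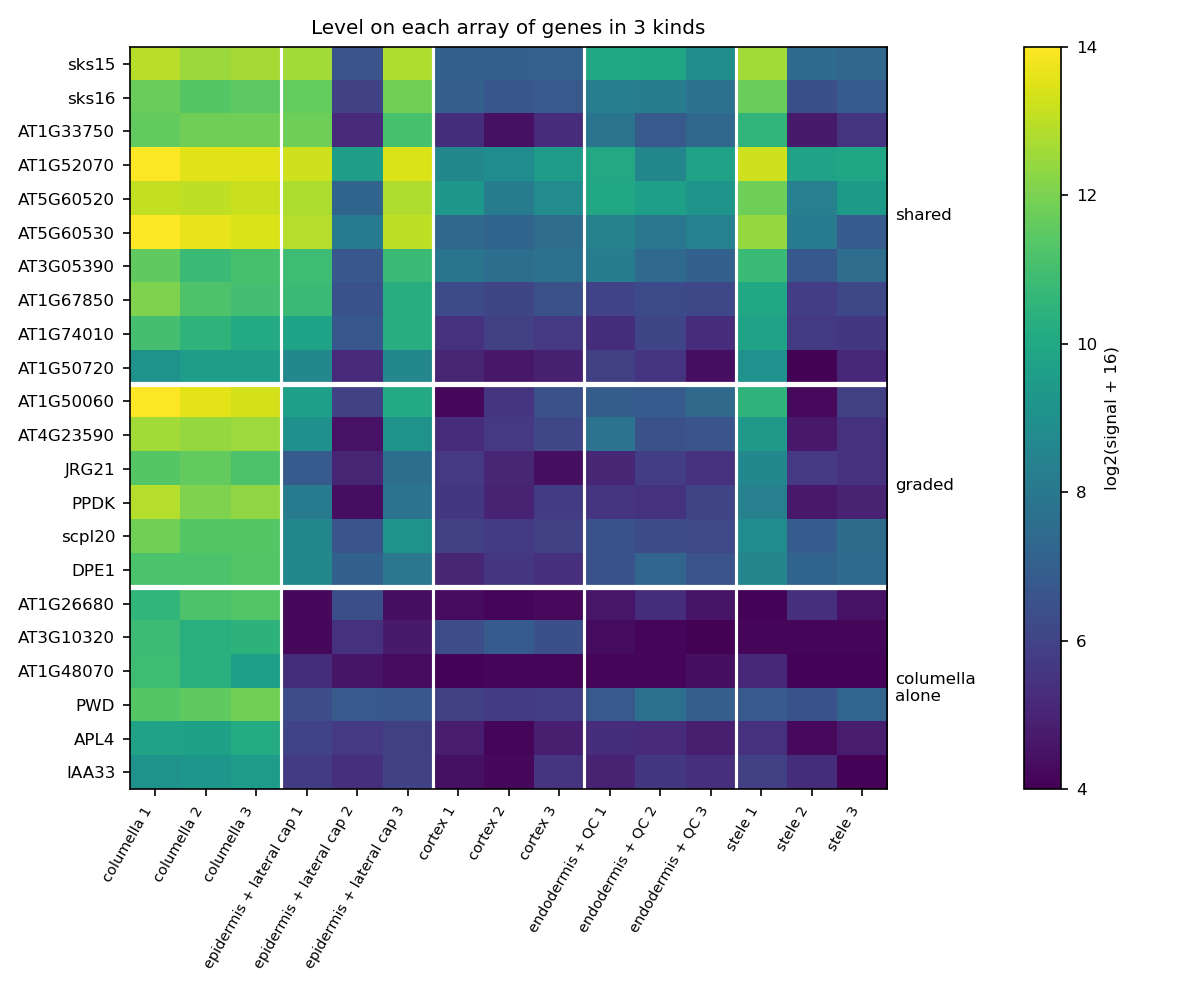
Level (colour, log2(signal + 16)) of 22 genes on all 15 arrays, in rows by kind and columns by population. The 10 shared genes are high on the columella arrays, epidermis replicates 1 and 3 and stele replicate 1, the 6 graded genes are intermediate on those epidermis arrays, and the 6 genes of the columella alone are low outside the columella.

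Some genes of the columella-only class were not absent from the other root cap sample. Without epidermis replicate 2, the epidermis was also called above cortex and endodermis for 163 of the 1165, and these are called graded here. With all arrays there were 81 of 1145, and 64 were graded in both fits. For the remaining 1002 and 1064, 889 of them in both fits, the epidermis was not called above both cortex and endodermis. These are termed columella alone here. A missing call does not show absence from the epidermis, and the stele was not part of the rule. PPDK was graded without replicate 2, having 273 and 210.0 on epidermis replicates 1 and 3 against 32.6, 15.2 and 39.3 in the cortex. AT1G50060, AT4G23590, JRG21 and GH9B6 were graded in the same fit, and DPE1, WES1, EXPA4 and scpl20 in both. For EXPA4 the cortex had 8.52, 6.02 and 7.27 and the endodermis 26.9, 10.6 and 40.7, below every epidermis array. SBE2.2, APL4, PWD, IAA33, GH3.17, CLE40 and CR4 were of the columella alone kind in both fits, as were AT1G26680, AT3G10320, AT1G48070 and AT4G18450. GH3.17 still had 1613, 2124 and 1855 in the cortex, above its epidermis arrays. GH3.1, of the same family, was instead in the shared class in both fits, with 118, 86.6 and 49.7 in the columella and 179, 19.1 and 119.7 in the epidermis. Its groups overlapped, and its difference was -0.01 (95% interval -1.46 to 1.43).

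The epidermis-only class held EXPA7, EXPA18, GH9C1, EXLA2, AT3G06460, AT3G49190, AT3G12860 and AT3G49960 in both fits. Its median level without replicate 2 was 9.34 and 9.04 on epidermis replicates 1 and 3 and 8.64 on replicate 2. The stele arrays were at 8.86, 8.72 and 8.59. For AT3G06460 the stele had 4258, 262 and 114, so that stele replicate 1 matched epidermis replicates 1 and 3 and the other stele arrays matched epidermis replicate 2. BGLU28, SIR and CBL were in no class, and for BGLU28 the endodermis had 3238, 3609 and 4195, above every epidermis array.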

How the data were processed

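The values analysed are the MAS5 signal intensities that the authors deposited for 15 Affymetrix arrays, 1 column per array; MAS5 is named in the submitters' processing notes, and its version and target scaling are not given in the sources used here. Per the labels' protocols, RNA of sorted protoplasts was amplified in 2 cycles before hybridisation. Of 22810 probe sets, 13513 carried 1 gene, 503 several and 8794 no name, and 13436 were matched to a locus of TAIR10.1. The 64 control probe sets were left out of the tests.

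Signals were taken as log2(signal + 16) and kept in the deposited scaling. Probe sets above the array's 40th percentile on at least 3 of 6 arrays were fitted with limma 3.58.1 in R 4.3.3 (lmFit, eBayes with a variance trend), with Benjamini-Hochberg adjustment over all 14117 probe sets. Tables were prepared in Python 3.11.15 with pandas 2.3.3. Classes came from 1 fit over 12 arrays, or 11 without epidermis replicate 2; the separation of graded genes was added after seeing the data. Where a gene had more than 1 probe set, that of highest mean level stood for it. Named were the marker genes, the 12 highest differences in each direction among genes called with all arrays, without epidermis replicate 2 and under quantile scaling, the leading genes of each class and up to 4 called members of each list. Other list members, PHV, GSO1 and BBM included, were named after their values were seen. The members and lists were chosen with earlier results of these data known. On simulated data over 14117 probe sets, 100 genes changed by log2 1.5 were found in 57% of cases and 100 changed by log2 3 in 98%, and 6 unchanged probe sets were called. The simulated noise was independent between probe sets, and no simulated array departed from its group as epidermis replicate 2 does. No other probe sets were changed in the simulation, whereas 27.1% were called in the data, and the adjusted p depends on the share changed. The values of 57% and 98% therefore hold for that setting only.

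Replicate numbers were checked for pairing. The correlations of same-numbered deviations from the group means were -0.04, 0.15 and 0.01, and those of different-numbered ones -0.15 to 0.19. The numbers were therefore not used as a block, though a check on 3 arrays per group cannot exclude a pairing. Nothing in the labels says that replicates came from separate cultures, so p-values measure only the spread between these arrays, which may be technical. The number of arrays, 3 per group, limits the precision. Alternatives were quantile scaling, other pseudocounts, filters and variance settings, array weights, all 15 arrays in 1 fit, a replicate block, other references and thresholds for the classes, and leaving out each array.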

Additional observations from a re-analysis of the deposited data

How the results depend on the processing

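Leaving out 1 array gave 1391 to 2762 probe sets higher in the columella and 1145 to 2146 higher in the epidermis, the lowest without columella replicate 1 and the highest without epidermis replicate 2. Class counts over the same sets were 995 to 1165 columella-only, 130 to 280 shared and 613 to 948 epidermis-only. With the replicate block, 2105 and 1825 were called, and as the check of the replicate numbers showed no pairing this is given for completeness. The remaining alternatives gave 1520 to 2601 and 1236 to 2310, all within 1.5 times of 2015 and 1815. The shared class had 66 members with a pseudocount of 64, 0 with stele as a further reference and 293 with a log2 threshold of 0.5. The epidermis-only class had 507, 0 and 1222 under the same choices, and 233 with the stele reference without epidermis replicate 2 and stele replicate 1; this last choice and quantile scaling without epidermis replicate 2 were added after seeing the data. Of 82 named genes that were called, 61 kept the call under every alternative in which they were tested and 21 lost it under at least 1, and 5 not called gained one. The 60th percentile filter left 8 of the 82 untested, 2 of them among the 61. The genes whose sign turned were all uncalled with all arrays. Leaving out 1 array gave log2 differences from -0.21 to 0.21 for APL3, -0.21 to 1.77 for BBM, -0.75 to 0.49 for GH3.1, -1.63 to 0.080 for GSO1, -0.24 to 0.12 for rbcL, -0.004 to 3.11 for sks15 and -0.22 to 2.74 for sks16. With array weights, APL3 was at -0.077, GSO1 at 0.095, SCN1 at 0.033 and rbcL at 0.023. BBM was at -0.0099 with a pseudocount of 64 and GH3.1 at 0.092 with a pseudocount of 1. Under quantile scaling without epidermis replicate 2, GSO1 was at 0.051, sks16 at -0.039 and AT5G66930 at -0.011. The causes were not tested. All values rest on 3 arrays per group, differences of dim genes are shrunk by the pseudocount, and the lateral root cap was not measured apart from the epidermis.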

Other observations

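Genes of other families were called in smaller numbers, to be read beside the 14.3% of all probe sets called higher in the columella and 12.9% in the epidermis (19.6% and 15.2% without epidermis replicate 2). Without columella replicates 1, 2 and 3, the probe sets higher in the columella numbered 1391, 1439 and 1467, beside 2015 with all arrays. Without epidermis replicates 1 and 3 they numbered 1713 and 1830. Those higher in the epidermis numbered 1145, 1284, 1245, 1443 and 1774 in the same order, beside 1815. Of 19 tested genes of the TBL family, whose members add acetyl groups to wall polymers, 2 were higher in the columella and 1 in the epidermis, and 8 and 2 without epidermis replicate 2. Without epidermis replicate 1 or columella replicate 3, 0 of them were higher in the columella by limma. Of 12 tested beta-glucosidases and proteins linked to the endoplasmic reticulum body, 1 was higher in the columella and 2 in the epidermis, and the former count was 0 without columella replicate 1 or 3 and 2 without epidermis replicate 2 or 3. Of 6 tested WRKY transcription factors, 2 were higher in the columella and 0 in the epidermis, and 1 was without any 1 of 5 arrays. Of 4 tested genes of ribosome biogenesis, 3 were higher in the epidermis, 1 without epidermis replicate 2 and 0 without columella replicate 1 or 3.

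Among calls made without epidermis replicate 2, that array lay nearer to stele replicate 2 than to the mean of the other epidermis arrays for 76.7% of probe sets higher in the columella and 78.4% of those higher in the epidermis. Over all tested probe sets the share was 74.6%, so the called ones lay near that background. The same array lay nearer to the columella mean than to the other epidermis arrays for 38.6% and 27.4% of these calls, beside 41.1% of all tested probe sets.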
